A study of Mus musculus with 36 samples.

Results

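Genes that mark macrophages were followed in the liver of male C57BL/6 mice through development: Clec4f, Cd5l, Vsig4, Timd4, Marco, Csf1r, Emr1, Cd68, Cd163 and Lyz2. They were taken by symbol from a table of FPKM values (sequenced fragments scaled to transcript length and to the reads mapped in a library), and all 10 of these 10 symbols were present among the table's 21889 symbols. The table holds 36 livers from 12 ages, with 3 mice per age: GD17.5 (late gestation, labelled as Day -2 from birth), Day 0 (collected at birth, before suckling began), Days 1, 3, 5, 10, 15 and 20 (during suckling) and Days 25, 30, 45 and 60 (after weaning at 21 days of age). No group carried a treatment or an engineered allele, and each mouse was sampled at 1 age. Neither litter nor sequencing batch is given in the labels, so p-values measure the spread between mice of the same age, with 1 estimate per gene shared by all 12 ages. Because whole liver was extracted, fewer cells of a type and less RNA per cell cannot be told apart in these values.

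Kupffer cells are the macrophages that reside in the liver sinusoids. They descend largely from embryonic precursors that settle in the fetal liver, where macrophages also attend the maturing red cells of the erythroblastic islands, and they acquire their adult receptors beside sinusoidal endothelium, stellate cells and hepatocytes. In the grown liver they clear particles, aged red cells and opsonized microbes from the portal blood. Among the 10 genes, Clec4f, Cd5l, Vsig4, Timd4, Marco and Cd163 are largely restricted to tissue macrophages and are called the tissue macrophage genes below. They encode surface receptors, except for Cd5l, whose protein is secreted. Csf1r, Emr1 and Cd68 are shared by macrophages in general, and Lyz2 (lysozyme M) is made by macrophages, monocytes and neutrophils.

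The 10 genes did not share a course. Clec4f, Vsig4 and Cd163 had their lowest mean at GD17.5, and their highest mean was 10.3, 27.7 and 17.9 times as high. Timd4, Marco, Csf1r, Emr1, Cd68 and Lyz2 had their lowest mean at Day 45 or Day 60, and their highest was from 3.79 times as high for Csf1r to 27.8 times for Marco. Cd5l had its lowest mean at Day 0. The highest mean was at Day 5 for Clec4f, Cd5l, Timd4, Csf1r, Emr1 and Cd68, at Day 10 for Vsig4 and at Day 1 for Marco, whereas Lyz2 peaked at Day 0 and Cd163 at Day 60.

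**Figure D1:**
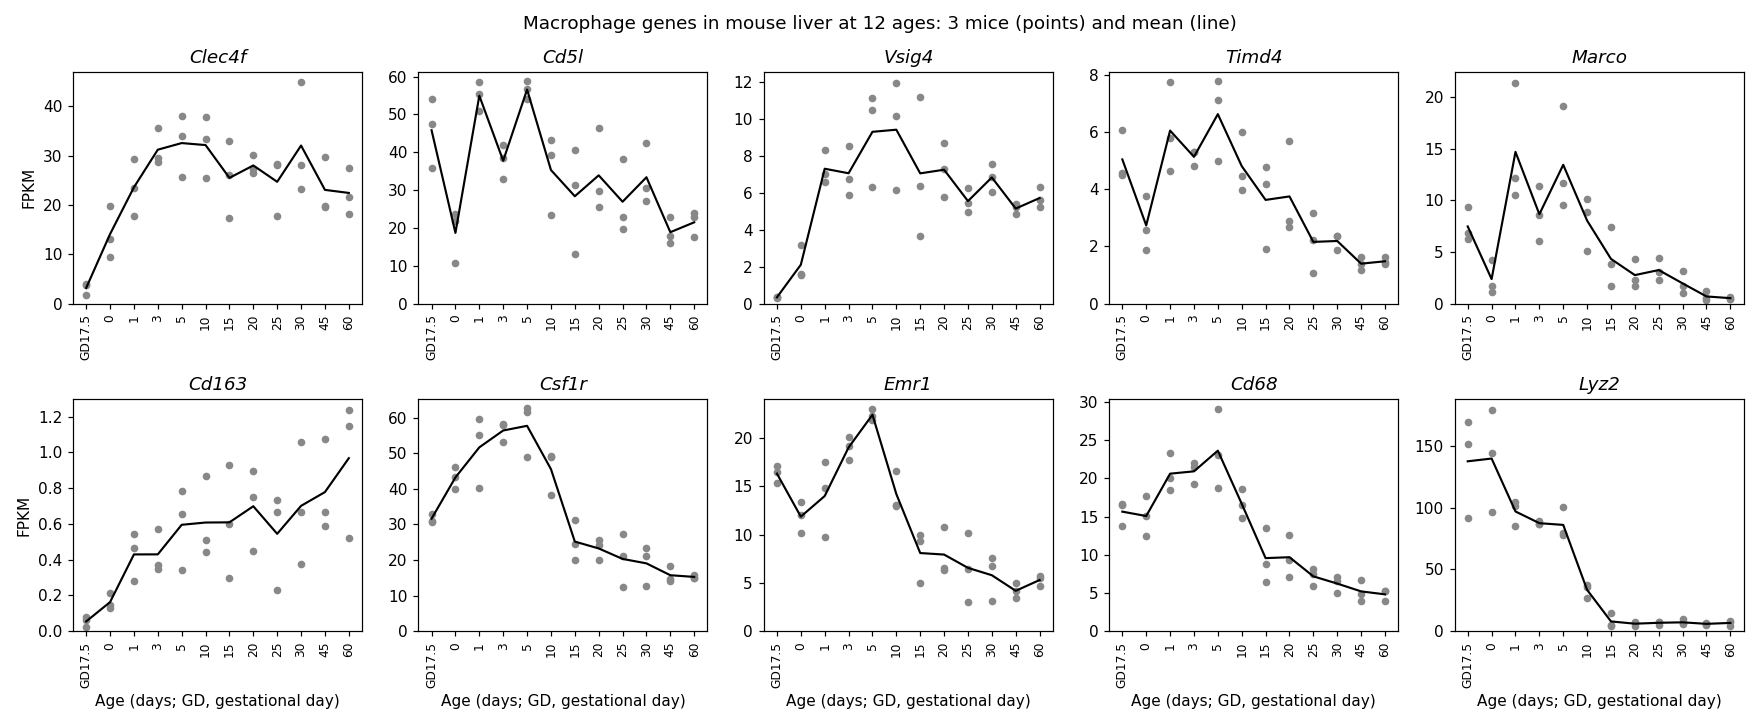
FPKM (linear axes, each starting at 0) of the 10 genes at 12 ages, with grey points for the 3 mice of an age and a black line for their mean. Clec4f, Vsig4 and Cd163 start from their lowest level at GD17.5, Cd5l, Timd4 and Marco dip at Day 0, and Csf1r, Emr1, Cd68 and Lyz2 are low from Day 15 on.

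The promoters of genes with opposite courses are shown so that their sequence can be set beside their levels. RefSeq promoter sequences (GRCm38.p6, a later build than the NCBI37/mm9 genome to which the reads were mapped) were found for 8 of the 10 genes (not Csf1r or Emr1), and the 250 bases before the start site were used. The following letter strings were searched on both strands: GAGGAAG (the core bound by PU.1, the master factor of the macrophage lineage), GGAAGT (bound by the wider ETS family that includes PU.1), TGANTCA (AP-1 and related factors) and AGGTCA (bound by nuclear receptors). GAGGAAG and GGAAGT share letters and may overlap. Below, Clec4f and Vsig4 are genes that were low before birth, and Timd4 and Marco are genes that were low in the adult; capitals mark every match to any of the 4 strings.
Clec4f promoter (chr6:83656117-83656366, minus strand): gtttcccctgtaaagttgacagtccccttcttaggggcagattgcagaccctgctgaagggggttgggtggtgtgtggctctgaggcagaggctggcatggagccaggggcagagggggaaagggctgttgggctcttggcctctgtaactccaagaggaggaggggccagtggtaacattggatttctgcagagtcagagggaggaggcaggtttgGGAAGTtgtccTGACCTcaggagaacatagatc
Vsig4 promoter (chrX:96293439-96293688, minus strand): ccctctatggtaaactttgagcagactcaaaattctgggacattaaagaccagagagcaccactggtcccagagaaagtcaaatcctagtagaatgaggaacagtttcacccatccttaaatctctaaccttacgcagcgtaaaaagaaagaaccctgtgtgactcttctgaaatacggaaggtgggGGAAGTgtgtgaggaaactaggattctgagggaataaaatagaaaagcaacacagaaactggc
Timd4 promoter (chr11:46810549-46810798, plus strand): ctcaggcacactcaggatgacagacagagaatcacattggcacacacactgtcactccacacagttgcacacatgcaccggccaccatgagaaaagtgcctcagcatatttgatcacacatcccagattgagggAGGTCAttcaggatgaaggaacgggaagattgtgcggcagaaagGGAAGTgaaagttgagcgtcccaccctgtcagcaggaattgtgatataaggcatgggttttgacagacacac
Marco promoter (chr1:120505025-120505274, minus strand): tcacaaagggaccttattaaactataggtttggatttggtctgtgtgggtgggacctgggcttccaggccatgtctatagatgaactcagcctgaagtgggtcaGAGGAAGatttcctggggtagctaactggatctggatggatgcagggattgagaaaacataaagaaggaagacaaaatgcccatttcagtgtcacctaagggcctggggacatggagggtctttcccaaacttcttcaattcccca

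GGAAGT was present in 4 of the 8 promoters, those of Clec4f, Vsig4, Timd4 and Lyz2, against 19.7% of 32851 mouse promoters of the same length. GAGGAAG was present in 2 of 8 (Cd5l and Marco; 10.6% of all promoters), AGGTCA in 2 of 8 (Clec4f and Timd4; 14%) and TGANTCA in 1 of 8 (Cd68, with 2 matches; 6.75%). Clec4f carried AGGTCA on the opposite strand starting 22 bases before the start site and GGAAGT starting 33 bases before it. GGAAGT started 63 bases before the start site in Vsig4 and 72 bases before it in Timd4, so the string was present both in genes that were low before birth and in a gene that was low in the adult. Cd163 held none of the 4 strings in this window.

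Levels were tested on log2(FPKM + 1) with limma across the 36 mice. The 11149 genes that averaged 1 FPKM or more at some age were tested, and a gene was called when its Benjamini-Hochberg adjusted p over all these genes was under 0.05. Fold changes on this scale understate the change of genes near 1 FPKM. Of the 10 genes 9 were tested, and Cd163, whose highest mean was 0.968 FPKM, did not pass the filter. All 9 were called in at least 1 of the 11 comparisons with Day 60, as were 90.7% of all genes tested. Most of the liver transcriptome thus moved with age, and the median gene was 0.54 higher (log2) at GD17.5 to Day 5 than at Days 25 to 60. The median gene was 0.29 lower at Day 0 than at GD17.5 and 0.19 higher at Day 1 than at Day 0, and where a fold change below is given relative to the median of all genes, this shift was taken from it.

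Clec4f encodes a C-type lectin that in the mouse is confined to Kupffer cells. At GD17.5 the 3 mice had 1.76, 4.06 and 3.70 FPKM, at Day 0 they had 19.8, 13 and 9.43, and at Day 1 they had 17.9, 29.4 and 23.5. From Day 3 on each mouse lay between 17.3 and 44.8 FPKM. GD17.5 and Day 0 did not overlap, and this was the only step between consecutive ages at which the 3 mice of one age lay clear of the 3 of the next. The log2 fold change at Day 0 against GD17.5 was 1.85 (SE 0.28, adjusted p = 4.01e-06), or 2.14 relative to the median of all genes. Clec4f was higher again at Day 1 than at Day 0 (log2 fold change 0.73, SE 0.28, adjusted p = 0.0447). This call was lost without Day 0 replicate 3, where the change was 0.50, and also without Day 0 replicate 2, Day 1 replicate 2 or Day 1 replicate 3, under upper quartile scaling, with a pseudocount of 0.1 and without the filter on low values. Against Day 60 (22.4 ± 4.73 FPKM, SD, n = 3), Clec4f was called at GD17.5 and Day 0 only, lower at both ages.

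Vsig4 encodes a complement receptor of the immunoglobulin superfamily with which Kupffer cells capture complement-coated particles from the blood. The mice had 0.379, 0.3 and 0.34 FPKM at GD17.5, then 3.15, 1.63 and 1.52 at Day 0 and 8.33, 6.99 and 6.55 at Day 1. At Day 60 they had 5.23, 6.30 and 5.58. GD17.5, Day 0 and Day 1 did not overlap, and each mouse of Day 1 was above each mouse of Day 60. The change was 1.17 (SE 0.25, adjusted p = 0.000302) at Day 0 against GD17.5 and 1.45 (SE 0.25, adjusted p = 7.19e-05) at Day 1 against Day 0, and with a pseudocount of 0.1 in place of 1 the first of these was 2.25. The highest mean was 9.40 ± 2.97 FPKM (SD, n = 3) at Day 10, and Vsig4 was called higher than at Day 60 at Day 5 alone (0.58, adjusted p = 0.0411), of which 0.06 remained relative to the median of all genes. It was not called there under upper quartile scaling (0.03, adjusted p = 0.923).

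Cd163 encodes the scavenger receptor for haemoglobin bound to haptoglobin. Its 3 values were 0.0771, 0.0248 and 0.0604 FPKM at GD17.5, then 0.213, 0.147 and 0.127 at Day 0, and later 1.15, 1.24 and 0.520 at Day 60. All of these levels were low, although 1 fragment corresponded to about 0.00248 FPKM of Cd163 at the depth estimated for these libraries. Mice at GD17.5, Day 0 and Day 1 did not overlap. When all genes above 0 in some library were tested without a filter (18601 genes), Cd163 was lower at GD17.5 to Day 5 than at Days 25 to 60 (log2 fold change -0.39, SE 0.08, adjusted p = 0.000102), and it was called lower than at Day 60 at GD17.5 and Days 0, 1 and 3. The age means of Clec4f, Vsig4 and Cd163, the genes that were low before birth, were correlated, which is given as a description. Over 12 age means Pearson's r was 0.97 between Clec4f and Vsig4, and 0.76 and 0.77 between each of them and Cd163. Their courses still differed: at Day 1 the mean was 105% of Day 60 for Clec4f and 128% for Vsig4, but 44.3% for Cd163.

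Timd4 encodes a phosphatidylserine receptor for the uptake of apoptotic cells and marks macrophages of embryonic origin. The mice had 6.07, 4.56 and 4.51 FPKM at GD17.5, then 3.75, 2.57 and 1.89 at Day 0 and 7.74, 5.80 and 4.63 at Day 1. After the highest mean of 6.63 ± 1.47 FPKM at Day 5 (SD, n = 3), they had 1.44, 1.63 and 1.38 at Day 60. Day 0 lay below the ages on either side without overlap. The change was -0.71 (SE 0.25, adjusted p = 0.0184) at Day 0 against GD17.5 and 0.92 (SE 0.25, adjusted p = 0.00662) at Day 1 against Day 0. The Day 0 call was lost without GD17.5 replicate 1 (-0.60) or Day 0 replicate 3 (-0.54), under a scaling that gave all libraries the same upper quartile (-0.48, adjusted p = 0.112) and after the dependence of each library on GC content and length was removed (-0.34, adjusted p = 0.178). The Day 1 call was lost without Day 0 replicate 3 (0.75) or Day 1 replicate 1 (0.76). Timd4 was called higher than at Day 60 at GD17.5 and at each of Days 1 to 20.

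Marco encodes a class A scavenger receptor that binds bacteria and particles. It had 6.84, 9.36 and 6.22 FPKM at GD17.5, then 4.26, 1.71 and 1.14 at Day 0 and 21.4, 10.5 and 12.2 at Day 1, and later 0.450, 0.464 and 0.670 at Day 60. Each of the 3 mice at Day 0 lay below each mouse at GD17.5 and at Day 1. The change was -1.42 (SE 0.38, adjusted p = 0.00253) at Day 0 against GD17.5 and 2.26 (SE 0.38, adjusted p = 4.74e-05) at Day 1 against Day 0, and both calls were kept under upper quartile scaling and after removal of the GC trend. Marco was the gene of the 9 that differed from Day 60 for longest: in the main fit it was called higher at every age up to Day 25, where the values were 3.03, 2.26 and 4.46 FPKM. The Day 0 call against Day 60 (1.04) was lost under upper quartile scaling (0.89, limma adjusted p = 0.0519). After removal of the GC trend it was lost too (0.84, limma adjusted p = 0.0752).

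Cd5l encodes a secreted scavenger protein of the cysteine-rich family that macrophages release into the blood. Its values were 35.8, 47.6 and 54.1 FPKM at GD17.5, then 23.6, 21.7 and 10.7 at Day 0, 58.7, 50.9 and 55.4 at Day 1, and later 17.6, 24 and 22.9 at Day 60. Day 0 thus overlapped Day 60 but neither of its neighbouring ages. The change was -1.30 (SE 0.32, adjusted p = 0.00114) at Day 0 against GD17.5 and 1.58 (SE 0.32, adjusted p = 0.000436) at Day 1 against Day 0. Cd5l was called higher than at Day 60 at GD17.5 and at Days 1, 3 and 5, but of its change over the broad groups of ages (0.68) only 0.14 remained relative to the median of all genes. Under upper quartile scaling the calls at GD17.5 (0.46, adjusted p = 0.190) and Day 3 (0.19, adjusted p = 0.638) were lost.

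Csf1r is the receptor for the macrophage growth factors Csf1 and Il34, on which Kupffer cells depend. The mice had 32.9, 31.1 and 30.8 FPKM at GD17.5, then 61.6, 62.6 and 48.8 at Day 5, and later 15.0, 15.8 and 14.9 at Day 60. Levels at GD17.5 lay below those of Day 5 and above those of Day 60 without overlap. Csf1r did not dip at birth: each mouse at Day 0 (40.1 to 46.2 FPKM) lay above each mouse at GD17.5, although the change at Day 0 against GD17.5 was not called (0.44, SE 0.21, adjusted p = 0.0819), and under upper quartile scaling it was 0.70 (adjusted p = 0.00198). It was called higher than at Day 60 at each age up to Day 15.

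Emr1, also named Adgre1, encodes the adhesion receptor recognised by the classic mouse macrophage antibody against F4/80. It had 16.5, 15.3 and 17.1 FPKM at GD17.5, then 12.1, 13.4 and 10.1 at Day 0, 23, 22.3 and 21.9 at Day 5, and finally 4.64, 5.50 and 5.74 at Day 60. Cd68, a glycoprotein of late endosomes and lysosomes, had 16.7, 16.5 and 13.7 FPKM at GD17.5, then 29.1, 18.8 and 23 at Day 5 and finally 3.94, 5.22 and 5.29 at Day 60. Both genes were called higher than at Day 60 at each age up to Day 10, and Cd68 also at Days 15 and 20. At Day 0 against GD17.5 the changes were -0.44 (SE 0.28, adjusted p = 0.192) for Emr1 and -0.06 (SE 0.21, adjusted p = 0.835) for Cd68. Neither was called, although for Emr1 each mouse at Day 0 lay below each mouse at GD17.5. Over the 12 age means Csf1r, Emr1 and Cd68 were correlated with each other at Pearson's r of 0.94 to 0.98, given as a description.

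Lyz2 had the highest mean FPKM of the 10 genes at each age from GD17.5 to Day 5, whereas at Day 60 Clec4f, Cd5l and Csf1r were all above it. The mice had 91.9, 169.4 and 151.3 FPKM at GD17.5, then 96.3, 179.0 and 144.1 at Day 0, 27, 35.8 and 37.4 at Day 10, 14.5, 5.28 and 3.74 at Day 15, and finally 4.28, 7.59 and 7.99 at Day 60. The fall was thus concentrated between Days 5 and 15, with no overlap at either step, and Lyz2 was called higher than at Day 60 at each age up to Day 10. Lyz1, the neighbouring gene of the intestinal lysozyme, went from 4.92 ± 0.881 FPKM at Day 0 to 0.121 ± 0.0401 at Day 25 (SD, n = 3). In the GENCODE M1 transcripts, 24 of 1214 windows of 100 bases of Lyz2 (1.98%) and 195 of 1264 windows of 50 bases (15.4%) were identical in Lyz1, so part of the Lyz1 level may be reads of Lyz2 and its value is uncertain.

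Against Day 60 the number of the 9 genes called fell with age. It was 9 at GD17.5 (7 higher, and Clec4f and Vsig4 lower; 75.1% of all genes tested were called) and 7 at Day 0 (5 higher, 2 lower; 63.9%). The higher genes at Day 0 numbered 4 under upper quartile scaling, and 6 with a pseudocount of 0.1, a filter at 5 FPKM or a replicate block. The count was 7 for Day 1 (65%), 7 for Day 3 (66%), 8 for Day 5 (65.4%; 7 with a pseudocount of 0.1, without the filter on low values, or under upper quartile or TPM scaling) and 6 for Day 10 (46%). From Day 1 on, each called gene was higher. At Day 15 there were 4 (27.4%), namely Timd4, Marco, Csf1r and Cd68, and at Day 20 there were 3 (15.9%), namely Timd4, Marco and Cd68. These late counts rested on single libraries, with 1 gene called at Day 15 without Day 15 replicate 1, and 0 at Day 20 without Day 20 replicate 1. Marco alone was called at Day 25 (7.42% of all genes), and it was not called there without Day 25 replicate 3, Day 60 replicate 1 or Day 60 replicate 2. With limma 0 genes were called at Day 30 (3.56%), where Marco alone passed 0.05 without adjustment, and 0 at Day 45 (0.233%), where 0 did. No other tool was run.

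**Figure D2:**
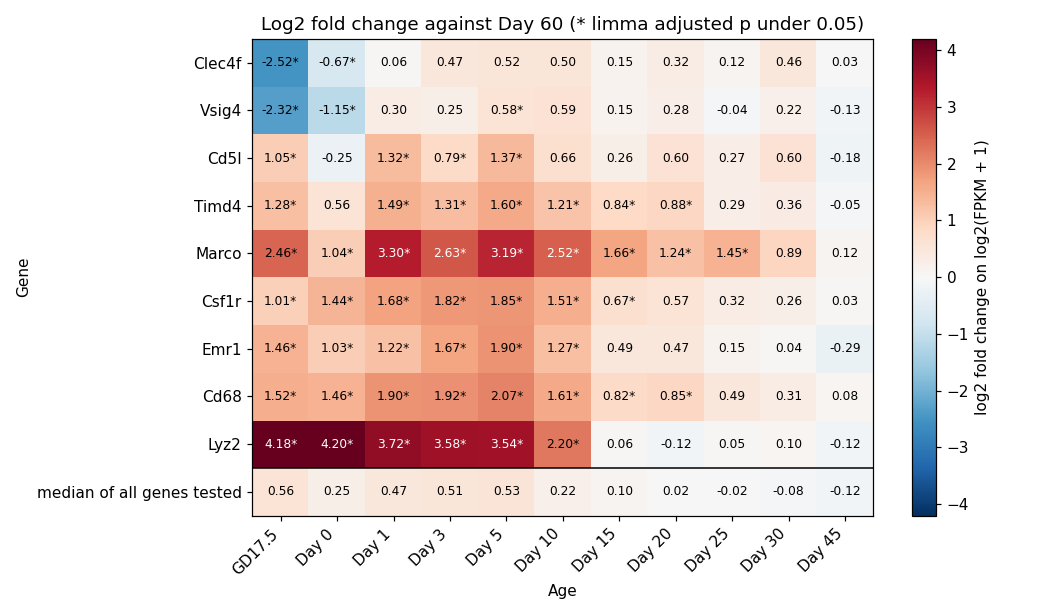
Log2 fold change on log2(FPKM + 1) of 9 genes (rows) at 11 ages (columns) against Day 60, with the median of all 11149 genes tested in the bottom row; colour and number give the same value, and a star marks a limma adjusted p under 0.05. Clec4f and Vsig4 are blue (lower) at GD17.5 and Day 0, and Marco and Lyz2 carry the highest values, 3.30 at Day 1 and 4.2 at Day 0.

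The broad groups of ages pooled the same mice, so their counts are not independent of those above. At GD17.5 to Day 5 against Days 25 to 60, 7 of the 9 genes were higher (70.2% of all genes were) and 2 were lower (15.5%), Clec4f by -0.58 (SE 0.13, adjusted p = 0.000199) and Vsig4 by -0.48 (SE 0.12, adjusted p = 0.000495). Against Day 60 both were called lower at GD17.5 and Day 0 but at none of Days 1, 3 and 5, and the median Vsig4 level of the 15 early mice (6.28 FPKM) was above that of the 12 at Days 25 to 60 (5.51). The 7 ranged from 0.68 for Cd5l through 1.10 for Timd4, 1.4 for Csf1r, 1.48 for Emr1, 1.55 for Cd68 and 1.91 for Marco to 3.84 (SE 0.15, adjusted p = 4.13e-20) for Lyz2. The median over the 9 genes was 1.4, beside 0.54 over all genes tested. Under upper quartile scaling Cd5l was not called (0.07, adjusted p = 0.692) and the other 8 genes were called in the same direction. That scaling also changed the split over all genes, from 81.9% of the called genes being higher to 59.4%.

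At Days 10 to 20 against Days 25 to 60, 7 genes were higher (44.9% of all genes) and 0 lower (12.4%; none of the 9 had a fold change below 0). Timd4 (0.83), Marco (1.19), Csf1r (0.76), Emr1 (0.77), Cd68 (0.87), Lyz2 (0.71) and Vsig4 (0.33, adjusted p = 0.0382) were the 7. The Vsig4 call was lost under upper quartile scaling and in 11 of the 36 fits that left out a mouse. Clec4f had 0.17 (adjusted p = 0.338) and Cd5l 0.33 (adjusted p = 0.0970).

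At GD17.5 to Day 5 against Days 10 to 20, 5 genes were higher (61.2% of all genes) and 2 lower (14.6%), Clec4f by -0.75 (SE 0.14) and Vsig4 by -0.81 (SE 0.13). Only 3 of the 9 were called under upper quartile scaling, Lyz2 higher and Clec4f and Vsig4 lower, and the share of called genes that were higher went from 80.7% to 52.5%. Relative to the median of all genes (0.35), Marco, Csf1r, Emr1 and Cd68 kept from 0.29 to 0.36 and Lyz2 kept 2.78.

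Across birth the tissue macrophage genes moved in both directions. At Day 0 against GD17.5, 2 genes were higher (Clec4f and Vsig4, beside 13.1% of all genes) and 3 were lower (Cd5l, Timd4 and Marco, beside 41.4%). Each of the 5 tissue macrophage genes tested was thus called and neither Csf1r, Emr1, Cd68 nor Lyz2 was, although Csf1r (upward) and Emr1 (downward) also did not overlap. Under upper quartile scaling Timd4 was not called and Csf1r was called higher (0.70), and whether the 5 genes differed from the other members was not tested. At Day 1 against Day 0, those 5 were higher (23.7% of all genes) and 0 were lower (7.88%; 0 with an unadjusted p under 0.05 in that direction). Without Day 0 replicate 3 the count at Day 1 was 3, with Clec4f and Timd4 lost. Upper quartile scaling moved the share of called genes that were higher from 24.1% to 43.5% at Day 0 and from 75% to 55% at Day 1. The 3 Day 0 libraries had expression that leaned to GC-rich genes, with a correlation between each library's deviation and GC content of 0.16 to 0.36, against -0.11 to 0.04 at GD17.5. After that trend was removed, Clec4f, Vsig4, Cd5l and Marco were called in the same directions at Day 0.

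Across weaning, at Day 25 against Day 20, limma called 0 of the 9 genes higher (3.94% of all genes) and 0 lower (3.26%). Timd4 alone passed 0.05 without adjustment (log2 fold change -0.59, SE 0.25), and its limma adjusted p was 0.175.

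Ratios between genes of the same library do not depend on how libraries were scaled. They still carry the library's leaning to GC-rich genes where the 2 genes differ in GC content. Clec4f over Csf1r was 0.0533, 0.131 and 0.120 in the mice at GD17.5, then 0.458, 0.326 and 0.204 at Day 0, 0.550, 0.607 and 0.527 at Day 5 and finally 1.21, 1.74 and 1.45 at Day 60. Vsig4 over Timd4 was 0.0625, 0.0657 and 0.0755 at GD17.5, then 0.841, 0.632 and 0.806 at Day 0 and 3.63, 3.88 and 4.05 at Day 60. Both ratios were lowest at GD17.5, and the 3 mice there lay below each of the other 33. By contrast Cd68 over Csf1r had age means between 0.316 and 0.495, and Emr1 over Csf1r between 0.266 and 0.517, with the highest at GD17.5 in both.

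Marco over Csf1r was 0.208, 0.301 and 0.202 at GD17.5, then 0.0985, 0.0428 and 0.0247 at Day 0, 0.359, 0.190 and 0.303 at Day 1, and finally 0.0300, 0.0294 and 0.0450 at Day 60. The Day 0 dip and the adult fall of Marco were therefore both present relative to Csf1r. Timd4 and Cd5l had the Day 0 dip relative to Csf1r but no comparable adult fall. The transcripts of Timd4 and Csf1r have a GC content of 44.4% and 54.5%, and the Day 0 libraries leaned to GC-rich genes. After that trend was removed, the log2 fold change at Day 0 against GD17.5 was -0.34 for Timd4 (not called), -1.28 for Cd5l and 0.39 for Csf1r. The part of the leaning in these ratios was not tested. The mean of Timd4 over Csf1r was 0.159 at GD17.5, 0.0639 at Day 0, 0.117 at Day 1 and 0.0971 at Day 60, and that of Cd5l over Csf1r was 1.46, 0.440, 1.09 and 1.41. Lyz2 over Csf1r went from a mean of 4.39 at GD17.5 to 0.290 at Day 15 and 0.261 at Day 20 and was 0.434 at Day 60.

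**Figure D3:**
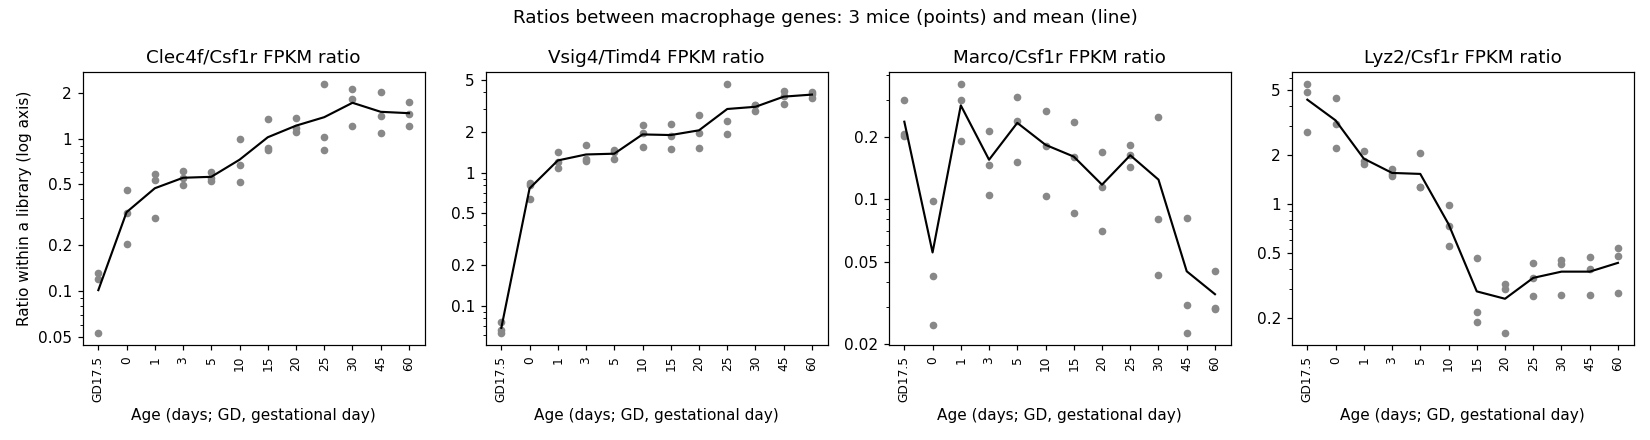
Ratio of FPKM within a library (log axes) for 4 pairs of genes at 12 ages, with grey points for the 3 mice and a black line for their mean. Clec4f/Csf1r and Vsig4/Timd4 climb from GD17.5 (means 0.101 and 0.0679) to Day 60 (1.47 and 3.85), Marco/Csf1r dips at Day 0, and Lyz2/Csf1r drops to its lowest mean at Day 20 (0.261).

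In the summed FPKM of the 10 genes, Lyz2 made up 51.5% at GD17.5 and 55.2% at Day 0, but 7.72% at Day 60. Clec4f went the other way, from 1.17% at GD17.5 to 26.4% at Day 60, and Vsig4 from 0.134% to 6.78%. Csf1r held between 12.4% and 23% at each age. Cd5l, at 17.4% at GD17.5 and 25.4% at Day 60, was lowest at Day 0 with 7.54%.

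Mice of 1 age also differed together. Once the age mean was taken from each gene, all 45 pairs of the 10 genes had a positive Pearson's r over the 36 mice (from 0.10 to 0.86, median 0.53), although 16 of the 45 were not positive over the age means, where r ranged from -0.78 to 0.98. Day 15 replicate 3 was the lowest of its age for all 10 genes and Day 20 replicate 1 the highest for all 10. Day 15 replicate 1, Day 25 replicate 3 and Day 1 replicate 1 were the highest for 9 genes, and Day 25 replicate 2 and Day 30 replicate 1 the lowest for 9. Replicate 1 was the highest for 7 genes or more at each of Days 0, 1, 5, 10, 15 and 20. At Day 30 it was the lowest for 9 and at Day 60 the lowest for 7. All the genes of a mouse share its library. The members' median deviation moved with the library's leaning to GC-rich genes within an age (r = -0.64 over 36 mice), most for Cd163 (-0.79) and Vsig4 (-0.77) and least for Clec4f (-0.04). With the part linear in that leaning removed, 44 of the 45 pairs were positive (median 0.42), and 44 were under upper quartile scaling (median 0.41). These correlations are descriptions.

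**Figure D4:**
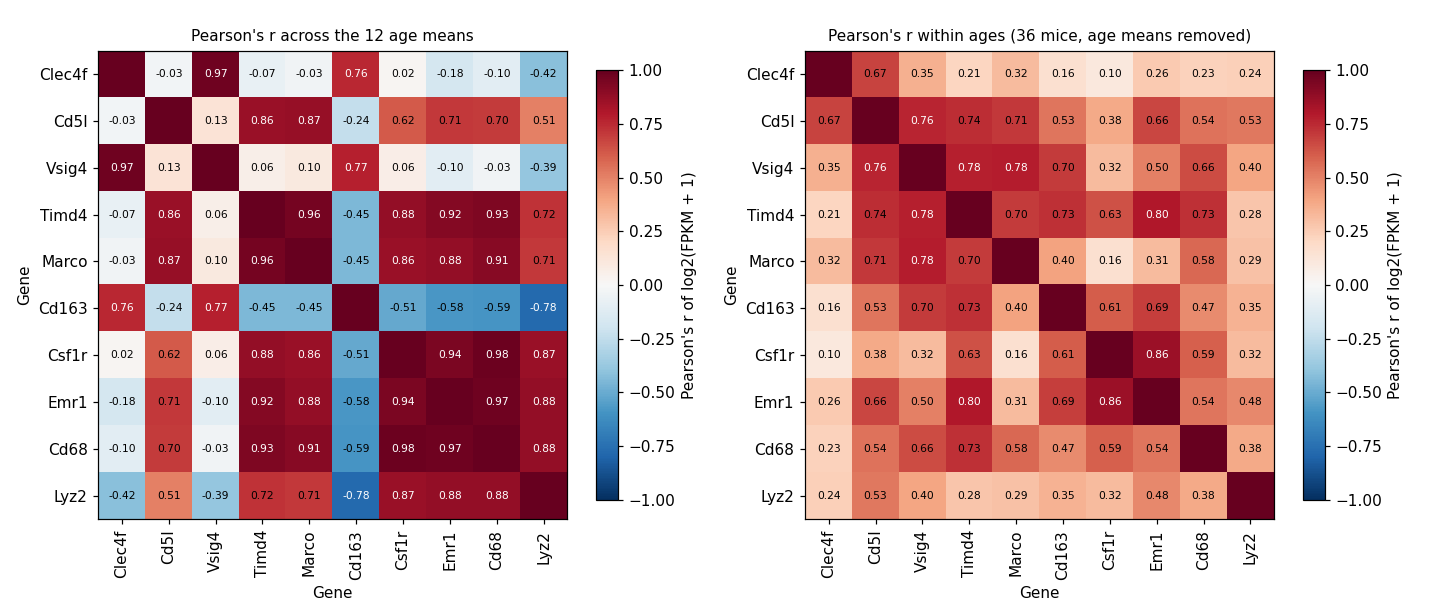
Pearson's r of log2(FPKM + 1) between the 10 genes over the 12 age means (left) and over 36 mice after the mean of each age was removed (right); red is positive and blue negative. Across ages Cd163 is negative with 7 genes and Clec4f with 6, whereas within ages each of the 45 pairs is positive.

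The likeness of each gene to the other genes tested was measured by Pearson's r over the 36 mice, which share age as well as library. Csf1r was most like Axl, a receptor for apoptotic cells (r = 0.97), Lilrb3 and Lpcat2, and Emr1 was most like Cd86, a costimulatory molecule of antigen-presenting cells (0.96), P2ry13 and Ptgs1. Cd68 was most like Cmtm3 (0.96), Vash1 and Crtap. Lyz2 was most like Stfa3 (0.99), Gapt and Ncf1, a subunit of the phagocyte oxidase. The genes most like Clec4f were Hp, the haptoglobin made by hepatocytes (0.94), Hyi and Proc, the protein C made by hepatocytes, while those most like Vsig4 were A2ld1 (0.94), Igsf5 and Cp, the ferroxidase ceruloplasmin. Timd4 was most like Rcn2 (0.94), Cd180 and Cd38, Marco was most like AF251705 (0.92), Pls1 and Ifngr1, and Cd5l was most like Clec7a, a receptor for fungal glucans (0.90), Vps36 and Ctla2b. The nearest genes of Cd163 were Dcun1d4 (0.91), 4930506M07Rik and Dlg3.

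Other genes of the macrophage were taken from lists. Their counts at GD17.5 to Day 5 against Days 25 to 60 stand beside 70.2% of all genes higher and 15.5% lower, or 46.8% and 32% under upper quartile scaling. Of 14 genes of Kupffer cell identity, 7 were higher and 7 lower at GD17.5 to Day 5 than at Days 25 to 60 (median 0.12, beside 0.54 over all genes). Spic, the transcription factor of iron-recycling macrophages, fell from 4.06 FPKM at GD17.5 and 6.77 at Day 1 to 0.387 at Day 60 (log2 fold change over the broad groups 1.91, SE 0.08). Nr1h3, the oxysterol receptor that Kupffer cells and hepatocytes both use, went from 19 to 63.1 FPKM (-1.08, SE 0.11), Id3 from 12.7 to 44.2 FPKM (-0.45, SE 0.15), and C6, a complement component that hepatocytes also make, from 0.633 to 74.1 FPKM (-3.18, SE 0.11). Among 8 macrophage transcription factors tested, 4 were higher and 3 lower, with Irf8 higher (1.71) and Cebpb lower (-0.59). Under upper quartile scaling the counts were 5 higher and 7 lower for the identity genes and 2 higher and 4 lower for the transcription factors.

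The ligands of Csf1r moved in opposite directions, while the median over all genes was 0.54 at GD17.5 to Day 5 against Days 25 to 60. Csf1 went from 2.58 ± 0.22 FPKM at GD17.5 to 1.29 ± 0.21 at Day 60 (log2 fold change over the broad groups 0.70, SE 0.07), and Il34 from 0.0315 ± 0.0013 to 0.734 ± 0.25 with a highest mean of 1.19 at Day 20 (-0.53, SE 0.05; SD, n = 3 for the levels). Of 10 growth factor genes tested, 9 were higher early and 1 was lower (beside 70.2% and 15.5% of all genes), with Tgfb1 higher by 2.90 (SE 0.07) and the receptor gene Csf2rb2 by 1.70. Under upper quartile scaling 7 were higher and 2 lower.

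Receptors for phagocytosis and opsonins were mostly higher in the young liver, as were 70.2% of all genes: 21 of 22 were higher and 1 was lower (median 1.13, beside 0.54), or 16 and 1 under upper quartile scaling. Fcgr3, an activating receptor for immunoglobulin, changed by 2.40, and C1qa, a complement subunit made by macrophages, by 0.73, from 33.1 FPKM before birth to 82.7 at Day 1 and 25.5 at Day 60. The exception was Fcgr2b, the inhibitory receptor that sinusoidal endothelium also bears (-0.69), which went from 1.74 to 11 FPKM. Of 14 lysosomal genes 6 were higher and 5 lower (median 0.07), with Lamp2, a lysosomal membrane protein, at -1.51, and upper quartile scaling gave 2 and 10. Of 12 genes of the erythroblastic island and of iron recycling, 10 were higher, among them Hmox1, the haem oxygenase (3.12, from 109 to 8.32 FPKM), and Vcam1, an adhesion molecule of island macrophages (3.29), and 2 were lower, Trf and Ftl1; hepatocytes make several genes of this list.

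Markers of other blood cells were much higher early, and their levels stand beside those of the members. All 12 genes of the neutrophil lineage were higher at GD17.5 to Day 5 (median 6.81), with a summed level of 1787 to 4654 FPKM over those 15 mice against 2.76 to 26.3 over the 12 mice of Days 25 to 60. Mpo, the neutrophil peroxidase, went from 244 FPKM at GD17.5 to 0.0223 at Day 60. This fall ran beside that of Lyz2, which neutrophils also express, and its part in the Lyz2 result was not tested. All 9 monocyte genes tested were higher (median 1.87), with a summed level of 127 to 318 FPKM against 7.14 to 27.6. Ccr2, the chemokine receptor of monocytes, was low throughout, at 0.688 FPKM at GD17.5 and 0.0707 at Day 60, and Cx3cr1 was at 1.18 and 0.0836.

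All 12 erythroid genes were higher early (median 5.15), with a summed level of 693 to 4792 FPKM against 32.8 to 87.8, and so were all 10 genes of the B lineage (median 1.82; 34.6 to 111 FPKM against 1.76 to 3.99). The 8 pan-leukocyte genes were higher too (median 2.37; 344 to 558 FPKM against 41.9 to 75.1), although Ptprc, the leukocyte antigen CD45, was near 1 FPKM at its highest (1.15 at Day 1). Of 5 T and NK genes tested 4 were higher (median 1.4), and both dendritic cell genes that passed the filter were (median 0.65), shares and medians to be read beside the 70.2% and 0.54 of all genes. At Day 0 against GD17.5, where Cd5l, Timd4 and Marco were lower, all 12 erythroid genes were lower (median -1.51; 41.4% of all genes were lower) and 9 of 10 hepatocyte genes were higher (median 2.39; 13.1% of all genes were higher). The part of these cells in the members' changes was not tested.

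Sinusoidal endothelium, the neighbour of the Kupffer cell, had 7 of 9 genes higher and 2 lower at GD17.5 to Day 5 (median 1.00), near the 70.2% and 15.5% of all genes, or 5 and 2 under upper quartile scaling. Lyve1 changed by 2.19, whereas Clec4g, a lectin of these cells, was lower early (-0.96) and went from 5.73 FPKM at GD17.5 to 46.3 at Day 5 and 36.3 at Day 60. Within ages, the averaged log2 deviation of the 3 pan-macrophage genes moved with this list at r = 0.77 over 36 mice, which share their libraries. With the dendritic cell list, which summed to only 0.597 to 4.45 FPKM, r was 0.89. For these 3 genes they were the highest of 15 lists, of which the phagocytosis receptors had 0.35 and the macrophage transcription factors the lowest, -0.39. The 6 tissue macrophage genes had another order, with the phagocytosis receptors highest (0.68), followed by the dendritic cell list (0.64). Kupffer cell identity had 0.54 there, sinusoidal endothelium 0.48 and the macrophage transcription factors the lowest, -0.37. For hepatocytes 2 of 10 genes were higher and 5 lower (median -0.44), with Alb, the serum albumin, at -1.39; under upper quartile scaling these counts were 1 and 8.

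**Figure D5:**
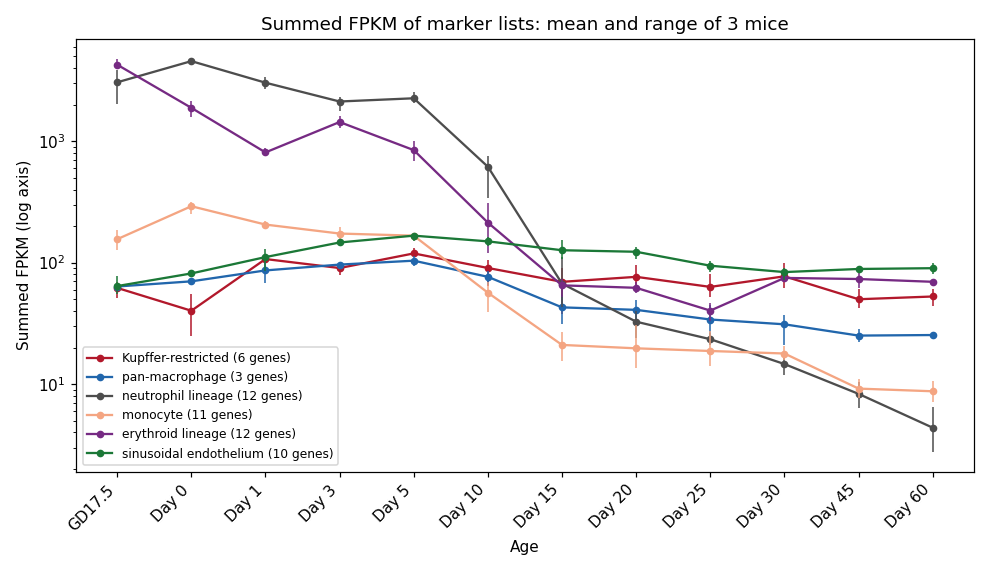
Summed FPKM (log axis) of 6 marker lists at 12 ages, with points for the mean of 3 mice and vertical lines for their range. The neutrophil sum drops from 3053 at GD17.5 to 4.37 at Day 60 and the erythroid sum from 4264 to 69.5. The 6 tissue macrophage genes go from 61.9 at GD17.5 through 40.2 at Day 0 and 119 at Day 5 to 52.6 at Day 60. The 3 pan-macrophage genes go from 63.6 through 104 at Day 5 to 25.3.

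Summed FPKM per library over all symbols ranged from 353712 to 450597, and 15155 to 17049 symbols were above 0. The deposited values carry no counts. For 991 low genes, the lowest value above 0 of each gene over all libraries was taken as 1 fragment. This gave a common depth of about 89.7 fragments per library in units of 1000000 (median over these genes, quartiles 78.9 and 104). At that depth 1 fragment of Cd68, the shortest transcript of the 10, was worth about 0.00906 FPKM. The upper quartile of the genes tested was higher in the young libraries, at 11.2 to 15.3 FPKM for GD17.5 to Day 5 against 7.06 to 9.58 for Days 25 to 60.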

How the data were processed

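RNA-Seq of whole liver from 36 male mice (3 at each of 12 ages) was used. Libraries were made from polyadenylated RNA of total RNA and read from both ends, 100 bases each. The authors mapped reads to NCBI37/mm9 with TopHat (1.2.0) and estimated FPKM with Cufflinks (1.0.3; versions from the submitters' processing notes), and deposited FPKM per gene symbol. Any further scaling of the libraries is not given in the sources used here. Estimation of this kind divides reads between genes that share sequence. FPKM is relative to all other transcripts, and the part of changes in other transcripts in the members' levels was not tested.

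After a log2(FPKM + 1) transformation, genes averaging 1 FPKM or more at some age were kept (11149), and limma 3.58.1 (R 4.3.3) was fitted with 1 mean per age over 36 mice and a variance trend. For any age against Day 60, p-values were adjusted over all genes and comparisons together. Tested on simulated data of 11149 genes for GD17.5 to Day 5 against Days 25 to 60, the fit recovered 98% of 2-fold and 100% of 4-fold changes, with 4.35% of calls false. Genes were simulated independently and 200 were changed, so these rates do not carry over to comparisons of single ages or to libraries with shared deviations. Alternatives were a pseudocount of 0.1, no filter or a filter at 5 FPKM, upper quartile or TPM scaling, a replicate block, no variance trend, each mouse left out in turn, and a correction of each library for GC content and length (10887 of the genes had both; chosen after seeing the data). Named genes were the members, the 3 genes most like each in Pearson's r, up to 2 genes per list and direction with the lowest adjusted p at GD17.5 to Day 5 against Days 25 to 60, and Csf1, Il34, C1qa, Nr1h3, Id3, Spic, Ccr2, Cx3cr1, Mpo, Ptprc and Lyz1; 1 gene chosen by this rule is not reported here. The members and lists were chosen with earlier results of these data known. Python 3.11.15 with pandas 2.3.3, numpy 2.4.6 and matplotlib 3.10.9 was used for sums, correlations, motif searches and figures.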

Additional observations from a re-analysis of the deposited data

How the results depend on the processing

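Apart from the fits that left out a mouse, 627 of the values recomputed under the alternatives were kept and 21 were not. A value was kept if its direction and its side of the threshold held, or if a count moved by less than the limit set. Under upper quartile scaling the genes called at GD17.5 to Day 5 against Days 10 to 20 numbered 3 in place of 7, and 3 values changed sign: Cd5l (-0.13) and Timd4 (-0.13) in that comparison and Cd68 at Day 0 against GD17.5 (0.19); none of these 3 was called. The cause was not tested. Over comparisons with Day 60, this scaling moved the share of called genes that were higher from 75.2% to 58.4% at GD17.5, from 87.0% to 61.3% at Day 5 and from 56.1% to 66.2% at Day 20.

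When each mouse was left out in turn, 2861 values were kept in the same sense. A call was lost for 19 values and gained for 21, while 9 changed sign and 6 counts moved beyond the limit. The count at Day 1 against Day 0 ranged from 3 to 5, at Day 15 against Day 60 from 1 to 4, at Day 20 from 0 to 4 and at Day 25 from 0 to 1. Values that crossed 0, none of them called, were Lyz2 (-0.24 to 0.27) and Cd68 (-0.18 to 0.065) at Day 0 against GD17.5 and, at Day 25 against Day 20, Marco (-0.0046 to 0.48), Lyz2 (-0.066 to 0.34), Clec4f (-0.31 to 0.0071), Csf1r (-0.49 to 0.057) and Emr1 (-0.67 to 0.064). The cause was not tested.

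The labels give no shared source for a replicate number, so the samples were not treated as paired. Of the pairs of same-numbered libraries, 104 of 198 had a correlation of deviations over 0.1 (median 0.13). For different numbers it was 147 of 396 (median -0.05). Of the 36 libraries 19 correlated best with their own number, and whether a number stands for a shared batch was not tested. With the replicate number as a block, 8 genes in place of 7 were called at GD17.5 to Day 5 against Days 10 to 20 and at Day 0 against Day 60, and 7 in place of 6 at Day 10. A depth common to all libraries, not one for each library, was estimated from the low values, and 3 mice per age limit the precision.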
